A study of Mus musculus with 27 samples.

Results

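Type 1 conventional dendritic cells (cDC1s) were compared with macrophages, both sorted from inflamed colon, on 15 of the 27 arrays of the study. The labels do not tell whether arrays of both cell types shared mice. The comparison was one of cell identity: the 5 arrays labelled CD11bnegDC (WT arrays 23 and 26, Mbd2KO arrays 27, 28 and 30) were set against the 10 arrays labelled Macrophage (WT arrays 11 to 15, Mbd2KO arrays 16 to 20), and genes are described where WT and Mbd2KO arrays gave the same call. All of these mice had received 2% dextran sodium sulfate (DSS), a polymer that injures the colon epithelium when it is drunk, so no array shows either cell type in a healthy colon. WT mice were littermates of Mbd2KO mice on a C57BL/6 background, and Mbd2KO mice lacked *Mbd2*, which encodes a reader of methylated DNA, in every cell of the body. Both cell types were sorted from lamina propria digests as CD45+Ly6G-Siglec-F- cells, cDC1s as CD11b-CD11c+CD103+ and macrophages as CD11b+Ly6C-MHC-II+ cells that also carried the product of *Adgre1*, and an array could hold cells pooled from several mice. The single *Mbd2* probe was above background on 0 of the 15 arrays (smallest detection p-value 0.118), so these arrays carried no check of the genotype labels.

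cDC1s are dendritic cells that take up dead cells, carry their antigens to lymph nodes and present them to CD8 T cells on MHC class I, and they depend on the transcription factors Batf3 and Irf8. Colon macrophages derive largely from blood monocytes, stay in the tissue under control of the receptor Csf1r, and clear bacteria, dead cells, iron and lipid. Both cell types carry MHC class II, and a macrophage of the colon may carry CD11c, so the pair is told apart by many genes and not by one.

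Levels are normalized intensities on the log2 scale, where a step of 1 is a doubling. Negative control probes served to correct the background, and the 25 colon arrays were quantile normalized together. These were the 15 arrays compared and 10 arrays of colon monocytes. The mean deposited intensity was 172 to 292 on the cDC1 arrays and 203 to 337 on the macrophage arrays, and 16383 to 17635 and 16495 to 18608 probes were detected. Values are given for WT cDC1 arrays 23 and 26, then for Mbd2KO cDC1 arrays 27, 28 and 30, and for the 10 macrophage arrays as the lowest, median and highest. Differences are cDC1 minus macrophage, averaged over both genotypes, from one limma model, with the standard error (SE) and a two-sided Benjamini-Hochberg adjusted p over all probes tested. The p-values measure the spread between arrays within groups, to which the monocyte arrays also contributed. The number of arrays (2 WT and 3 Mbd2KO for cDC1s, 5 and 5 for macrophages) limits the precision.

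The defining markers described here followed the sort labels. *Flt3*, also set as a defining marker, had no probe that passed the detection filter and was not tested. *Clec9a* (chromosome 6), the receptor by which cDC1s sense dead cells, was at 10.86, 11.08, 10.95, 10.21 and 10.49, against 5.77, 6.46 and 6.77 in macrophages. *Xcr1* (chromosome 9), the chemokine receptor particular to cDC1s, was at 8.64, 7.88, 8.10, 7.87 and 8.09 against 4.29, 4.56 and 4.98, and *Zbtb46*, a transcription factor of conventional dendritic cells, was at 7.89, 7.74, 8.05, 7.83 and 7.88 against 4.51, 4.92 and 5.52. For each of these genes every cDC1 array was brighter than every macrophage array, by a mean log2 difference of 4.41 (SE 0.18, limma adjusted p = 1.67e-15), 3.57 (SE 0.12, adjusted p = 4.3e-17) and 2.86 (SE 0.1, adjusted p = 7.38e-17). *Batf3* (1.46, SE 0.14, adjusted p = 5.38e-09) and *Irf8* (1.49, SE 0.13, adjusted p = 1.51e-09) were higher with no overlap and were also detected on all macrophage arrays, at medians of 8.34 and 10.39. Had arrays been scaled to a common median, not quantile normalized, both differences were below the minimum of 1 (0.90 for *Batf3* and 0.99 for *Irf8*). These values of *Batf3* came from its brightest probe, which the array names 9130211I03Rik, and the dimmer probe that the array names *Batf3* gave 2.23 (limma adjusted p = 9.95e-09), with means of 9.20 in cDC1s and 6.96 in macrophages.

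In the macrophages, *Csf1r* (chromosome 18), the receptor for the growth factor that keeps them alive, was at 12.27, 12.52 and 12.92 against 6.99, 7.15, 7.96, 7.20 and 8.89 in cDC1s. *Fcgr1* (chromosome 3), which encodes the high-affinity IgG receptor CD64, was at 9.48, 9.74 and 9.84 against 4.52, 5.05, 4.92, 4.56 and 6.15, and was detected on 3 of the 5 cDC1 arrays. The dead cell receptor gene *Mertk* was at 8.24, 9.19 and 9.98 against 4.91, 4.75, 4.50, 4.90 and 5.44. Each was lower on every cDC1 array than on any macrophage array, with log2 differences of -5.01 (SE 0.18, limma adjusted p = 1.44e-16), -4.69 (SE 0.17, adjusted p = 2.14e-16) and -4.27 (SE 0.16, adjusted p = 1.9e-16). *C1qa* (-3.87) and *Cd68* (-1.63) were lower as well, although *Cd68* was still at 10.14, 10.21, 10.58, 10.30 and 10.63 in cDC1s.

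**Figure D1:**
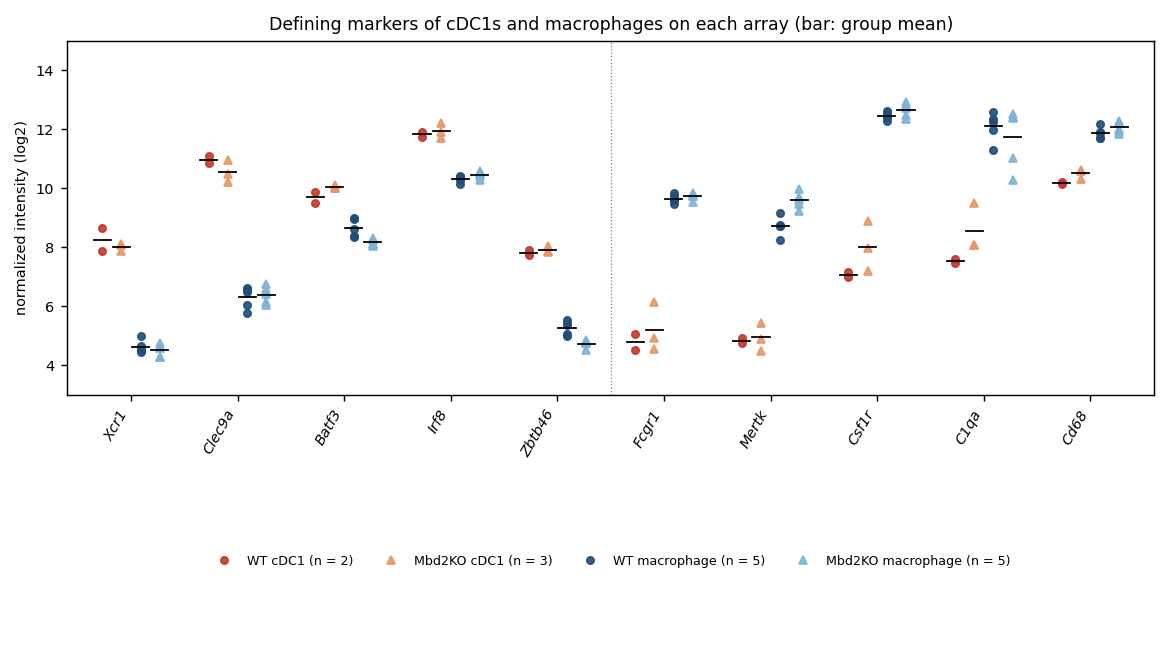
Normalized intensity (log2, vertical axis) of 5 markers of cDC1s (left of the dotted line) and 5 of macrophages (right) on each of the 15 arrays. Each point is 1 array and each bar a group mean. The cDC1 and macrophage arrays did not overlap for any of these 10 genes, and the gap between the nearest arrays was narrowest for *Batf3* and *C1qa*.

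The genes of the sort gates were a check of the sort and not a result. *Itgae*, which encodes CD103, was at 13.06, 13.19, 13.17, 12.90 and 12.94 against 7.51, 8.05 and 9.17, and *Adgre1*, which encodes the macrophage gate's surface antigen, at 8.07, 7.83, 8.83, 7.91 and 9.15 against 12.04, 12.30 and 12.36. *Itgax* (CD11c), 6.96, 7.63, 7.56, 7.50 and 8.66 against 7.64, 7.98 and 8.41, and *Ptprc* (CD45), 9.18, 8.04, 7.50, 8.05 and 8.82 against 8.05, 8.36 and 8.92, overlapped. The tested *Itgam* (CD11b) probe was above background on 0 cDC1 arrays and on 5 of 10 macrophage arrays, with a median of 4.61 over all 10, so it gave no useful check of CD11b. *Ly6c1* also overlapped (8.99, 8.72, 8.96, 10.09 and 9.53 against 7.63, 9.00 and 9.74).

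Lists of markers of other cell types differed between the sorts, and their part in the results below was not tested. In bulk samples, fewer cells of a type and less RNA per cell cannot be told apart. Summed over the 13 T cell markers tested, linear intensity was 5379 and 2939 on the WT cDC1 arrays and 3940, 6109 and 2657 on the Mbd2KO cDC1 arrays, against 1472 to 2415 on the macrophage arrays. Every cDC1 array was thus above every macrophage array, and arrays 23 and 28 were the highest of their genotypes. The 7 markers of NK and innate lymphoid cells summed to between 1073 and 2470 on cDC1 arrays and to between 362 and 670 on macrophage arrays. In the other direction, the 19 macrophage markers summed to 7628 to 13340 on cDC1 arrays, highest on Mbd2KO array 30, and to 70630 to 80460 on macrophage arrays. Of these 19 markers, 11 were detected on all 5 cDC1 arrays and 1 on none.

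**Figure D2:**
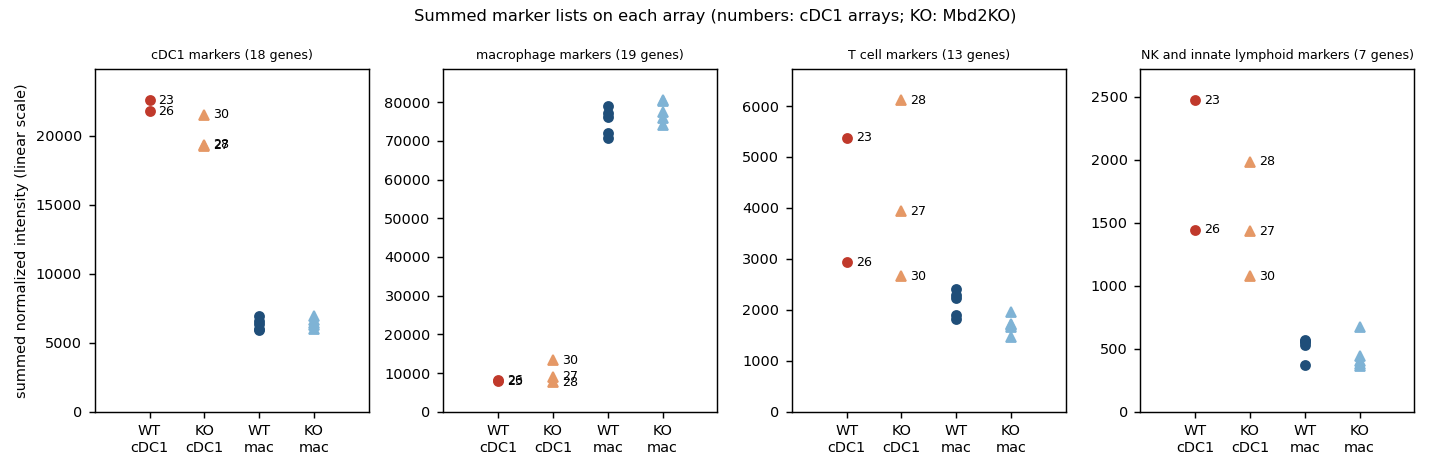
Summed normalized intensity (linear scale, vertical axis) of the tested members of 4 marker lists on each array, by genotype and cell type. Points are single arrays, and the cDC1 arrays carry their array numbers. T cell and NK markers were higher on every cDC1 array than on any macrophage array, and varied among the cDC1 arrays from 2657 to 6109 and from 1073 to 2470.

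Of the 12729 genes tested, 522 (4.10%) were called higher and 904 (7.10%) lower in cDC1s in both genotypes, where a call in a genotype required a log2 difference of 1 or more in size at an adjusted p below 0.05. Among these 1426 genes, no cDC1 array overlapped with any macrophage array for 481 of those that were higher and 845 of those that were lower. Over all genes tested, 10.6% did not overlap with cDC1s higher and 12.3% with cDC1s lower. With the genotypes averaged, 886 genes (6.96%) were higher and 1159 (9.11%) lower. Counts of list members below are to be read against the shares in both genotypes, 4.10% higher and 7.10% lower. Very large differences were more often on the macrophage side: of the genes called in both genotypes, the mean log2 difference was beyond 4 (16-fold) for 11 that were higher and 57 that were lower in cDC1s. The median log2 difference of all genes was -0.039. Median scaling moved it to -0.335 and gave 416 genes higher and 2017 lower, so that 17.1% of the calls were higher, against 43.3% with quantile normalization. Differences are therefore relative to the other genes of an array. Without arrays 23 and 28, which were highest in T cell markers, 579 genes were higher and 882 lower in both genotypes.

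**Figure D3:**
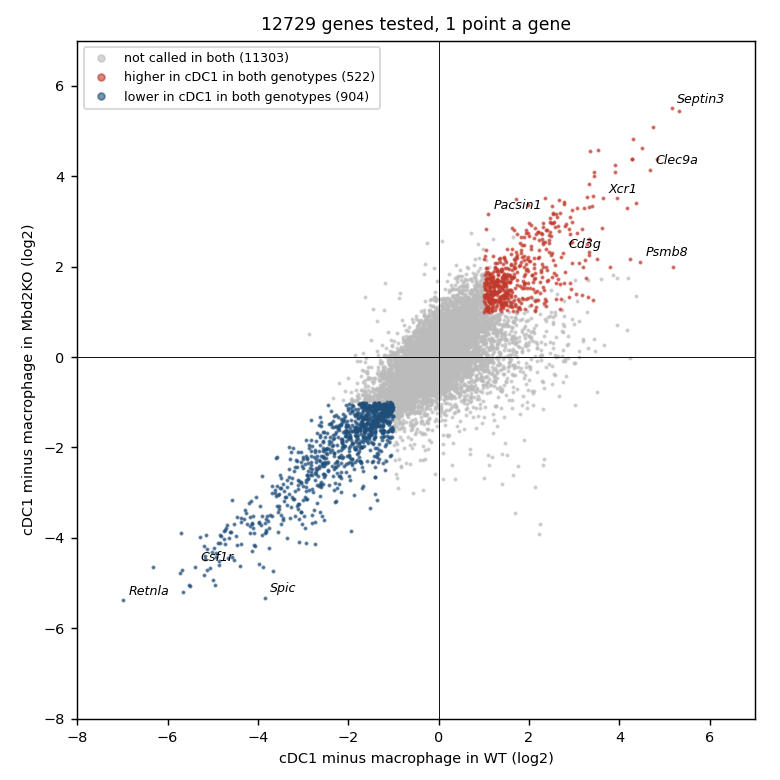
The cDC1 minus macrophage difference (log2) in WT (horizontal axis) and Mbd2KO (vertical axis) for the 12729 genes tested, 1 point a gene. Coloured points were called in the same direction in both genotypes, 522 higher and 904 lower in cDC1s, and 9 genes described in the text are named.

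The largest differences in favour of cDC1s lay in genes of very unlike functions. *Septin3* (chromosome 15), which encodes a GTPase of the septin cytoskeleton, was at 10.92, 11.08, 11.11, 11.27 and 11.01 against 5.29, 5.75 and 6.19, a log2 difference of 5.34 (SE 0.19, limma adjusted p = 1.53e-16). *Gpr33* (chromosome 12), an orphan receptor related to chemoattractant receptors, was at 8.87, 9.77, 9.30, 9.31 and 9.55 against 4.45, 4.87 and 5.08 and was detected on 6 of 10 macrophage arrays (4.57, SE 0.17, adjusted p = 1.6e-16). *Btla* (chromosome 16), an inhibitory receptor of lymphocytes and dendritic cells, was at 10.83, 11.20, 10.66, 10.41 and 10.46 against 5.71, 6.43 and 7.44 (4.33, SE 0.20, adjusted p = 1.57e-14). For each of these the dimmest cDC1 array was well above the brightest macrophage array.

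*Mycl*, a Myc family transcription factor of dendritic cells, was at 11.04, 10.63, 11.30, 10.92 and 10.75 against 6.47, 6.83 and 7.16 (4.08, SE 0.16, limma adjusted p = 3.47e-16). *Snx22*, a sorting nexin, was at 8.30, 8.38, 8.53, 8.45 and 8.33 against 4.27, 4.34 and 4.69 (4.00, SE 0.093, adjusted p = 1.26e-19) and was detected on only 2 of 10 macrophage arrays. *Wdr86*, a WD repeat protein, *Rtl8c*, a gene derived from a retrotransposon, *Sema4f*, a semaphorin, and *Tnni2*, a troponin subunit of fast skeletal muscle, were higher by 4.56, 4.60, 4.33 and 4.05. The cDC1 arrays of these 4 genes ran from 9.37 to 9.98, 9.33 to 9.85, 8.63 to 8.99 and 10.51 to 11.30, and the macrophage arrays from 4.85 to 5.66, 4.35 to 5.94, 4.28 to 4.92 and 6.47 to 7.44. The largest positive difference was read by a probe that the array names only *scl0002540.1_6* (5.38).

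On the macrophage side, *Retnla* (chromosome 16), which encodes the secreted protein RELMα of alternatively activated macrophages, was at 11.05, 11.94 and 12.89 against 5.59, 5.52, 6.39, 6.81 and 5.23 in cDC1s, a log2 difference of -6.18 (SE 0.27, limma adjusted p = 3.97e-15). *Clec4a1* and *Clec4a3*, C-type lectin receptor genes on chromosome 6, were at 10.56, 11.14 and 12.16 and 11.20, 11.38 and 11.54 against 5.13, 5.14, 6.42, 5.72 and 6.66 and 5.52, 5.83, 6.47, 5.60 and 6.47 in cDC1s (-5.49 and -5.43, adjusted p = 1.98e-18 and 9.96e-20). *Cx3cr1* (chromosome 9), the fractalkine receptor of gut macrophages, was at 10.02, 10.43 and 10.68 against 4.60, 5.39, 5.27, 4.41 and 6.17 (-5.29, SE 0.22, adjusted p = 2.54e-15). No array of one cell type reached the range of the other.

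The anti-inflammatory cytokine gene *Il10* (chromosome 1) was at 11.26, 11.55 and 12.07 in macrophages against 6.11, 6.57, 6.76, 6.87 and 6.65 (-5.00, SE 0.13, limma adjusted p = 7.11e-19). *Mrc1*, the mannose receptor CD206, was at 11.82, 12.25 and 12.54 against 7.07, 6.66, 7.58, 6.83 and 6.81 (-5.28, SE 0.17, adjusted p = 1.87e-17), and *Cd163*, the scavenger receptor for haemoglobin bound to haptoglobin, at 9.71, 10.33 and 10.97 against 5.57, 4.85, 5.72, 6.33 and 4.46 (-4.97, SE 0.24, adjusted p = 3.41e-14). The collagenase gene *Mmp13* (-4.92), the Fc receptor-like scavenger gene *Fcrls* (-5.25), the non-classical MHC class I gene *H2-M2* (-5.00) and a predicted locus, *LOC100048556* (-5.19), completed the 12 largest. *H2-M2* was the most variable of these among cDC1s, at 5.55, 7.52, 5.67, 4.70 and 7.58, against 10.66, 11.24 and 11.85 in macrophages.

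**Figure D4:**
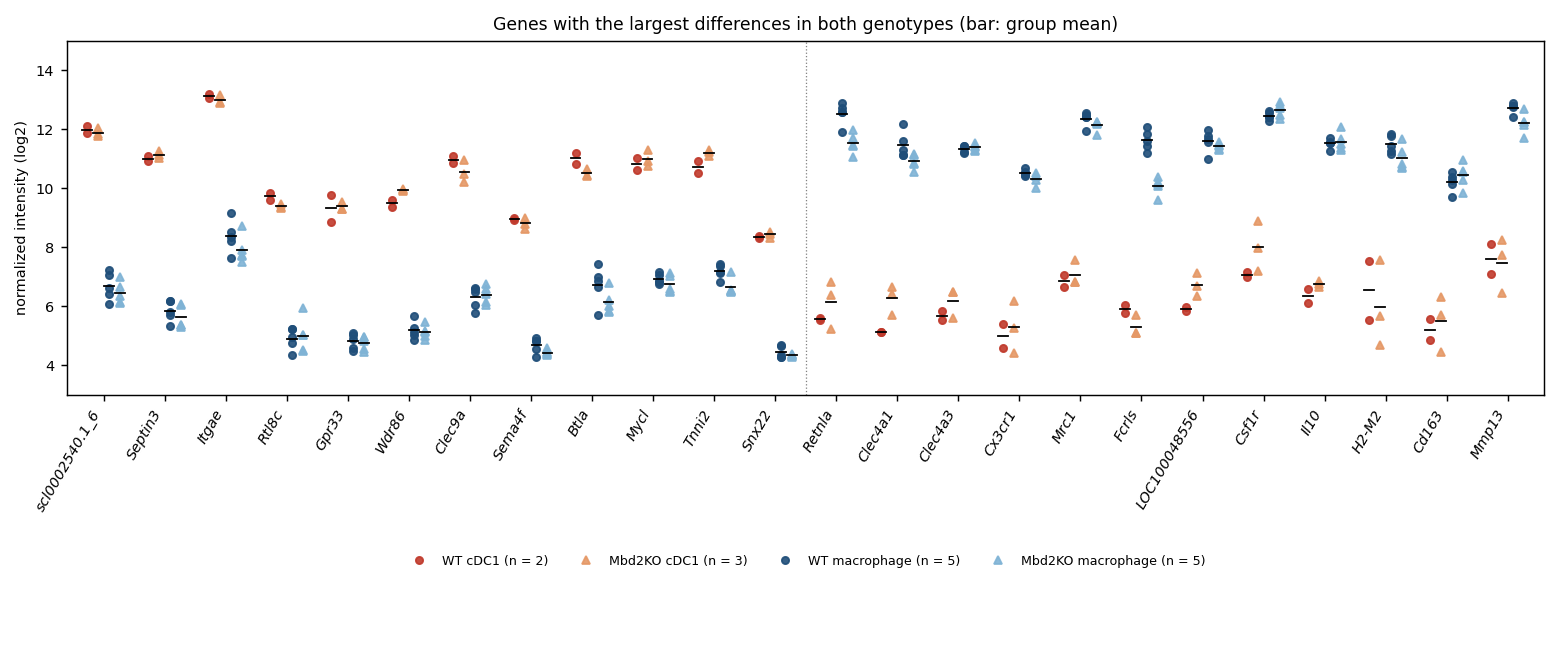
Normalized intensity (log2, vertical axis) of the 12 genes with the largest positive (left of the dotted line) and the 12 with the largest negative cDC1 minus macrophage difference among genes called in both genotypes. Each point is 1 array and each bar a group mean. The cDC1 and macrophage arrays did not overlap for any gene shown, which the choice of genes required.

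The stretch before the start site was read for 17 of these 24 genes from RefSeq promoters of build GRCm38.p6, and *scl0002540.1_6*, *Septin3*, *Itgae*, *Tnni2*, *LOC100048556*, *Il10* and *Csf1r* were not used here. The 4 promoters with a match among the 250 bases before the start are printed 5′ to 3′ on the strand of the gene, with the match in capitals, because these 4 genes are among the largest differences, *Gpr33* and *Wdr86* higher and *Clec4a1* and *Mmp13* lower in cDC1s, and the motifs are bound by factors of dendritic cells and macrophages. *Gpr33* (chr12:52028064-52028313, minus strand) and *Clec4a1* (chr6:122921598-122921847, plus strand) each hold 1 composite element of PU.1 and an interferon regulatory factor (EICE). *Wdr86* (chr5:24730681-24730930, minus strand) holds the E-box CACGTG, and *Mmp13* (chr9:7272264-7272513, plus strand) the AP-1 site TGANTCA.
Gpr33: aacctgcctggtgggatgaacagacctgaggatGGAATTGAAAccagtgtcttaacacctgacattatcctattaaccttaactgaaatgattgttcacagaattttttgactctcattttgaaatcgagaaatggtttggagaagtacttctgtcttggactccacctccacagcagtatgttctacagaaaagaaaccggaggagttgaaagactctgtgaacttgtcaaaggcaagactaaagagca
Wdr86: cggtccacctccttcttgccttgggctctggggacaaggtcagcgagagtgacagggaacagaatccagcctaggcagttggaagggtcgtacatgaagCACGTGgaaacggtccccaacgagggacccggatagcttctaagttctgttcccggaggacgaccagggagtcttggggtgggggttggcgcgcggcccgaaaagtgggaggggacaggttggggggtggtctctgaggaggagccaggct
Clec4a1: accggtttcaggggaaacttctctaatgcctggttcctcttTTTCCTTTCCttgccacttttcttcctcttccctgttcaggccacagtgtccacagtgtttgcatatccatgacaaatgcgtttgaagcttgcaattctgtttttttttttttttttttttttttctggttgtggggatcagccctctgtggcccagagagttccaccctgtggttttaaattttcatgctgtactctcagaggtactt
Mmp13: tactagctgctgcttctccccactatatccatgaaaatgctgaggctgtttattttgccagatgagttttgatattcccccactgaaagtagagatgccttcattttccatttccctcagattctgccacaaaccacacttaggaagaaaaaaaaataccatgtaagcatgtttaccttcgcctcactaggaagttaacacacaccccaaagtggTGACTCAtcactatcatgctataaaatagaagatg

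Searched on both strands over the 300 bases that the table gives for each promoter, which include 50 after the start, EICE was found in 2.43% of the promoters of all genes tested, in 2.16% of those of genes higher and in 2.54% of those of genes lower in cDC1s in both genotypes. The AP-1 site was in 5.59%, 5.17% and 8.52%, and the E-box in 9.77%, 7.97% and 9.96%. These shares rest on 8780 genes with a promoter in the table, 368 of them higher and 662 lower, and a match is a description of the letters and not of binding.

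Of the 18 cDC1 markers tested, 14 were higher in both genotypes and none was lower, with a median log2 difference of 2.30 against -0.039 over all genes. Beside the genes above, the germinal centre gene *Gcsam* (3.73), the innate sensor of profilin *Tlr11* (3.74), the surface protein gene *Cd24a* (2.52) and the lysosomal lipid amidase *Naaa* (2.45) were among them. *Tlr11* was at 8.79, 8.68, 9.04, 8.25 and 8.19 against 4.29, 4.80 and 5.78 (SE 0.16, limma adjusted p = 2.36e-15), and the double-stranded RNA sensor *Tlr3* at 6.30, 6.64, 7.08, 6.79 and 6.86 against 4.44, 5.00 and 5.30 (1.73, SE 0.10, adjusted p = 7.37e-13). The arrays did not overlap for either, but *Tlr3* was dim in both cell types. The other 4 members, *Clnk* (detected on 0 macrophage arrays and at least 1.77-fold higher), *Cadm1* (0.74), *Id2* (0.67) and *Rab7b* (0.61), were not called in both genotypes.

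Of the 16 general markers of conventional dendritic cells tested, 9 were higher in both genotypes and none was lower (median 1.33). *Kit*, the receptor of stem cell factor, was at 10.34, 11.05, 10.97, 10.33 and 10.60 against 7.70, 8.24 and 8.66 (2.46, SE 0.17, limma adjusted p = 1.66e-11), and the peptidase gene *Dpp4* (CD26) at 11.09, 11.34, 11.10, 10.73 and 10.80 against 8.03, 8.65 and 9.17 (2.41, SE 0.12, adjusted p = 6.31e-14). *Kmo* (2.24) and *Haao* (2.23), 2 enzymes of tryptophan breakdown, were higher as well. Markers of other dendritic cells did not share this direction, where 4.10% of all genes tested were higher and 7.10% lower. Of 14 markers of cDC2s and plasmacytoid dendritic cells, 3 were lower, *Sirpa* (-3.71), *Clec10a* (-2.60) and *Tcf4* (-1.68), and only *Pacsin1* was higher in both genotypes (5.54, 6.50, 8.41, 7.56 and 8.69 against 4.79, 4.97 and 5.46).

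Transcription factors split between the cell types, with 6 of 25 higher and 8 lower in cDC1s. Higher were *Mycl*, *Zbtb46*, *Irf8* and *Batf3* with *Zeb1* (1.52) and *Bcl11a* (1.47), a regulator of lymphoid and dendritic development. Under median scaling *Mycl* and *Zbtb46* alone of these 6 were still called in both genotypes. Lower were *Spic*, a factor of iron-recycling macrophages, at 4.57, 4.99, 4.72, 4.40 and 5.49 against 8.24, 9.30 and 10.51 (-4.59, SE 0.17, limma adjusted p = 3.47e-16), and the liver X receptor gene *Nr1h3* at 5.12, 5.66, 5.85, 5.54 and 6.76 against 9.77, 10.40 and 10.87 (-4.56, SE 0.20, adjusted p = 4.94e-15). The E-box binding repressors of the Zeb family lay on opposite sides: *Zeb1* was at 7.68, 8.21, 7.68, 7.23 and 7.55 against 5.87, 6.04 and 6.86, and *Zeb2* at 4.85, 5.03, 4.96, 4.59 and 4.32 against 7.82, 8.46 and 9.36 (-3.71, SE 0.26, adjusted p = 2e-11). *Cebpb* (-3.03), *Ets2* (-2.08) and *Pparg* (-1.63) were lower too, as was *Tfec*, which was detected on 0 cDC1 arrays and was at least 1.71-fold lower, taken against the lowest signal among detected probes of the cDC1 arrays. *Spi1*, which encodes PU.1 and was chosen after its values were seen, overlapped between the cell types (-0.49).

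Of the 19 macrophage markers tested, 16 were lower in cDC1s in both genotypes and none was higher, with a median of -3.96. Complement C1q, an opsonin of dead cells, was among them. *C1qc* was at 13.12, 13.35 and 13.49 against 8.21, 8.45, 8.98, 8.37 and 10.04 (-4.60, SE 0.17, limma adjusted p = 1.82e-16), and *C1qb* at 13.53, 13.61 and 13.69 against 8.66, 8.85, 9.65, 9.09 and 10.30 (-4.39, SE 0.13, adjusted p = 6.85e-18). Among cDC1s both were highest on Mbd2KO array 30. That array also had the highest sum of macrophage markers, but both genes are part of that sum. Of the 20 genes of resident colon macrophages, 15 were lower and none was higher in both genotypes (median -2.65), among them *Folr2*, a folate receptor, at 8.95, 9.89 and 10.25 against 4.80, 4.45, 5.61, 5.77 and 4.83 (-4.69, SE 0.23, adjusted p = 3.58e-14). Of 15 monocyte genes 4 were lower, *Fpr2* (-4.81), *F10* (-4.51), *Hp* (-2.68) and *Chil3* (-1.44), and 11 were not called in both genotypes. Over all genes tested, 7.10% were lower.

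Of 6 Fc gamma receptor genes 5 were lower (median -3.81). The activating receptors *Fcgr3* and *Fcgr4* were at 11.12, 11.87 and 12.19 and 13.02, 13.24 and 13.56 against 7.01, 6.79, 7.74, 7.42 and 8.51 and 8.49, 8.52, 9.44, 9.16 and 9.83 in cDC1s (-4.43 and -4.28, limma adjusted p = 1.87e-17 and 8.03e-19), and the inhibitory *Fcgr2b* was lower by a similar amount (-3.34). *Fcgrt*, which recycles IgG, was at -0.29. Of 15 complement genes, 11 were lower and none was higher (median -1.56), and *Cd93* was at 10.53, 10.82 and 11.38 against 6.60, 6.19, 5.91, 6.47 and 6.44 (-4.52, SE 0.14, adjusted p = 9.87e-18). Of 19 scavenger and dead cell uptake receptors, 14 were lower (median -2.08), including the lipid receptor gene *Trem2* at 8.25, 9.20 and 10.48 against 4.58, 4.62, 4.85, 4.35 and 4.94 (-4.63, SE 0.16, adjusted p = 9.43e-17). No member was higher in both genotypes.

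Of 28 cathepsins and lysosomal proteins, 14 were lower and none was higher (median -1.08). *Ctsa*, a carboxypeptidase, was at 11.16, 11.71 and 12.65 against 6.00, 6.44, 7.74, 7.18 and 8.21 (-4.81, SE 0.18, limma adjusted p = 3.26e-16), the protease gene *Lgmn* at 12.40, 13.33 and 13.61 against 10.58, 10.44, 10.28, 9.52 and 9.99 (-3.05, SE 0.14, adjusted p = 1.07e-14) and the membrane protein gene *Lamp1* at 12.47, 12.72 and 13.52 against 10.15, 10.19, 10.16, 10.23 and 10.46 (-2.55, SE 0.12, adjusted p = 3.23e-14). Of 13 heme and iron genes 7 were lower (median -1.65), including heme oxygenase 1 (*Hmox1*, -3.96), ceruloplasmin (*Cp*, -3.60) and the phagosomal metal transporter *Slc11a1* (-3.12). Of 16 lipid genes 9 were lower (median -1.96), with *Apoe* at 12.98, 13.30 and 13.44 against 9.01, 9.83, 9.62, 9.42 and 10.48 (-3.61, SE 0.15, adjusted p = 2e-15) and *Lpl*, lipoprotein lipase, at -3.16.

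**Figure D5:**
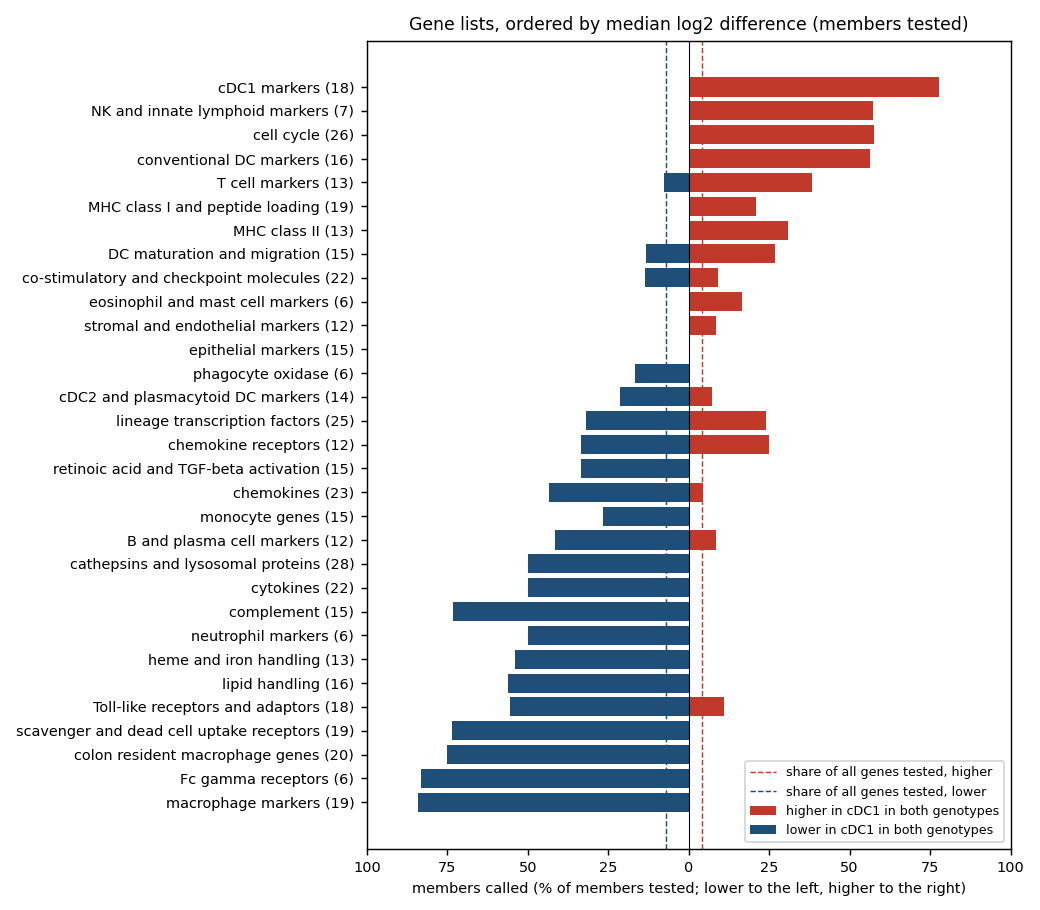
Share of the tested members of each gene list (horizontal axis, percent) that were called higher (red, to the right) or lower (blue, to the left) in cDC1s in both genotypes. Lists are ordered by their median log2 difference, the number of members tested is in parentheses, and dashed lines mark the shares over all genes tested, 4.10% and 7.10%. The lists of macrophage markers, Fc gamma receptors and resident macrophage genes had the lowest medians, and the cDC1 marker list the highest.

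The size of a list's difference depended on the background correction. With none, the median moved from 2.30 to 1.49 for cDC1 markers, from -2.08 to -1.24 for scavenger and dead cell uptake receptors, from -1.96 to -1.0 for lipid genes, from -2.07 to -1.19 for Toll-like receptors and from -1.27 to -0.81 for cytokines. It moved from -0.55 to -0.32 for chemokine receptors, from -0.61 to -0.20 for retinoic acid and TGF-beta genes and from 1.06 to 0.70 for T cell markers. The count of transcription factors fell to 3 higher and 5 lower, that of T cell markers to 3 higher, and that of dendritic cell maturation genes to 1 higher. Under median scaling 2 transcription factors, 1 MHC class I gene, 2 MHC class II genes, 1 maturation gene and 3 T cell markers were higher, and 5 markers of cDC2s and plasmacytoid dendritic cells were lower. Chemokine genes then had a median of -1.37 and chemokine receptors of -0.99.

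Probes of a gene could differ as well. Some dimmer probes were not called in both genotypes, as for *Ctsa* (2 of 5 probes, 0.45 and 0.14), *Fcgr2b* (2 of 4, -0.15 and -0.32), *Slc11a1* (2 of 4, -0.91 and -0.78), *Zeb2* (-0.66), *Osm* (-0.59) and *Ciita* (0.64). For *H2-Eb2* (0.51 and 0.37), *Cd40* (-0.60, -0.98 and -0.32) and *Pacsin1* (1.025, 0.08 and 0.46) only the brightest probe was called in both genotypes. A dimmer probe of *Psmb8* was called, with overlap (1.64). In some genes a dimmer probe was called in both genotypes and the brightest was not, as for *H2-DMb2* (3.39 against 0.59), *Lyz1* (-2.88 against -0.43) and *Mgl2* (-2.24 against -1.73). Counts of list members follow the brightest probe alone. Of 176 genes on the lists or named with several tested probes, 0 had probes called in opposite directions.

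Of 13 MHC class II genes, 4 were higher in cDC1s in both genotypes and none was lower. *H2-Oa* and *H2-Ob*, the chains of H2-O, which restrains peptide loading, were at 11.61, 11.60, 12.32, 12.01 and 12.16 and 9.99, 10.12, 10.07, 9.55 and 9.95 against 8.63, 8.98 and 9.70 and 6.39, 7.28 and 7.82 (2.86 and 2.73, limma adjusted p = 5.49e-13 and 5.5e-12). *Ciita*, the master regulator of class II, was at 10.75, 10.66, 10.87, 10.21 and 10.37 against 7.85, 8.96 and 9.53 (1.78, SE 0.21, adjusted p = 2.15e-07), and *H2-Eb2* was higher with overlap (2.21). Median scaling ended the call of *Ciita* and *H2-Eb2* in both genotypes (1.20 and 1.72 with the genotypes averaged). A classical chain and the invariant chain, chosen after their values were seen, did not separate. *H2-Ab1* was at 14.00, 14.14, 14.14, 14.14 and 14.00 against 13.96, 14.14 and 14.14, and *Cd74*, the invariant chain, at 13.86, 13.87, 13.72, 13.73 and 13.87 against 13.60, 13.87 and 13.96. These probes were near the top of the scale on every array, where quantile normalization gives the same value to the same rank and leaves little room for a difference. MHC-II was also part of the macrophage gate, so class II expression in macrophages was selected by the sort.

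Of 19 MHC class I and peptide loading genes, 4 were higher in both genotypes and none was lower (median 0.41, and -0.03 under median scaling). All 4 act on peptides: the immunoproteasome genes *Psmb8* and *Psmb9*, the proteasome activator *Psme2* and the peptide transporter *Tap2*. *Psmb8* was at 12.47, 12.31, 12.34, 12.12 and 12.33, even among cDC1s, but was spread over 4.64, 8.91 and 11.96 in macrophages (3.29, SE 0.63, limma adjusted p = 0.00012). *Psme2* was at 9.50, 9.47, 9.72, 9.82 and 10.08 against 4.72, 7.58 and 8.44 (2.31, SE 0.33, adjusted p = 2.55e-06), *Psmb9* at 12.61, 12.63, 12.85, 12.86 and 12.87 against 10.77, 11.55 and 11.81 (1.28) and *Tap2* at 11.23, 11.40, 11.44, 11.57 and 11.69 against 9.92, 10.31 and 10.86 (1.11). All 4 were without overlap, and of these *Psme2* alone was still called in both genotypes under median scaling. *H2-K1*, a classical class I chain chosen after its values were seen, overlapped (-0.18).

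Of 22 co-stimulatory and checkpoint genes, 2 were higher and 3 lower in both genotypes (median -0.07, and 0.07 with cyclic loess). Over all genes tested, 4.10% were higher and 7.10% lower. *Btla* was described above, and *Cd200* was higher by 1.22 (SE 0.21, limma adjusted p = 2.54e-05), which was below 1 under median scaling (0.76). *Vsir*, the inhibitory ligand VISTA, was at 7.42, 7.46, 8.06, 7.68 and 8.18 against 9.82, 9.96 and 10.34 (-2.29, SE 0.12, adjusted p = 2.11e-13), and *Lgals9* (-1.52) and *Cd40* (-1.10) were lower. Genes that dendritic cells induce when they mature and migrate also lay on both sides, 4 higher and 2 lower of 15. *Ccr7*, the receptor that guides them to lymph nodes, was at 9.35, 10.44, 9.89, 9.54 and 11.15 against 8.39, 8.71 and 9.12 (1.32, SE 0.21, adjusted p = 1.22e-05; 0.75 under median scaling). *Cacnb3* (2.01) and *Il4i1* (1.26, and 0.69 under median scaling) were higher, and *Marcksl1* was lower (-2.49). *Ccr7*, *Cacnb3* and *Il4i1* were each lower on WT array 23 than on any other cDC1 array.

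Among 18 Toll-like receptors and adaptors, 10 were lower in cDC1s in both genotypes (median -2.07), and the 2 that were higher were *Tlr3* and *Tlr11*. *Tlr7*, which senses single-stranded RNA, was at 4.71, 5.04, 5.55, 5.10 and 6.02 against 9.60, 9.94 and 10.09 (-4.67, SE 0.12, limma adjusted p = 8.4e-19). *Tlr2*, which senses bacterial lipopeptides, was at 8.40, 8.25, 8.36, 8.01 and 8.33 against 11.97, 12.24 and 12.42 (-3.93, SE 0.089, adjusted p = 9.96e-20), and its partner *Tlr1* at 5.38, 5.09, 5.53, 5.39 and 5.63 against 8.68, 9.11 and 9.35 (-3.70, SE 0.13, adjusted p = 6.7e-17). The lipopolysaccharide receptor *Tlr4* (-2.47) and its cofactors *Cd14* (-3.30) and *Ly96* (-2.44) were lower too. *Myd88*, the adaptor that most of these receptors share, was at 0.09 and overlapped.

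Of 23 chemokine genes, 10 were lower and 1 was higher in cDC1s in both genotypes (median -0.88). Among all genes tested 7.10% were lower and 4.10% higher, so 1 higher gene is near the share of all genes. *Ccl9* was at 12.47, 12.97 and 13.37 in macrophages against 8.51, 7.55, 8.81, 8.38 and 7.89 (-4.78, SE 0.15, limma adjusted p = 2.13e-17), *Pf4* at 11.30, 11.69 and 12.11 against 6.89, 6.31, 7.15, 7.38 and 7.57 (-4.69, SE 0.14, adjusted p = 6.69e-18), and *Ccl7* and *Ccl6* were lower by similar amounts (-3.77 and -3.76). The higher gene was *Xcl1*, the ligand of Xcr1 and a product of NK and T cells. *Xcl1* was at 8.11, 7.07, 7.66, 7.93 and 6.07 against 4.41, 4.79 and 5.67 (2.45, SE 0.24, adjusted p = 1.14e-08). It was highest on array 23 among WT cDC1s and on array 28 among Mbd2KO cDC1s, as the T cell marker sum was, and was 2.04 without both arrays.

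Chemokine receptors went both ways, 3 higher and 4 lower of 12, against 4.10% and 7.10% of all genes tested. With *Xcr1* and *Ccr7*, *Cxcr3* was higher, at 9.71, 8.40, 9.29, 9.04 and 8.66 against 6.00, 6.43 and 6.79 (2.61, SE 0.18, limma adjusted p = 2.49e-11), and was highest on array 23. Beside *Cx3cr1*, *Ccrl2*, a decoy-like receptor, was lower, at 9.60, 9.68, 10.06, 9.01 and 10.12 against 12.17, 12.30 and 13.17 (-2.72, SE 0.16, adjusted p = 6.83e-13). *Cxcr4* was lower by a smaller amount (-1.51).

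Of 22 cytokine genes, 11 were lower in cDC1s in both genotypes and none was higher (median -1.27). *Il1rn*, the antagonist of the interleukin 1 receptor, was at 10.94, 11.13 and 11.87 in macrophages against 6.15, 6.97, 6.57, 6.03 and 6.89 (-4.73, SE 0.19, limma adjusted p = 7.92e-16), *Il1a* at 8.15, 10.36 and 11.74 against 5.71, 6.38, 6.44, 5.07 and 6.75 (-4.20, SE 0.34, adjusted p = 3.63e-10) and *Osm*, oncostatin M, at 10.89, 11.13 and 11.57 against 6.66, 7.28, 7.83, 6.89 and 7.90 (-3.94, SE 0.20, adjusted p = 4.99e-14). *Il1b*, chosen after its values were seen, was bright in both cell types, at 13.43, 13.50, 13.25, 12.96 and 13.07 against 13.57, 13.64 and 13.75. Its difference of -0.37 was under the minimum although the arrays did not overlap (-0.61 under median scaling). *Il1b* was near the top of the scale, where quantile normalization leaves little room for a difference. Of 15 genes of retinoic acid and TGF-beta activation, 5 were lower and none was higher (median -0.61). The receptor genes *Tgfbr1* and *Tgfbr2* were at 11.50, 11.82 and 12.31 and 11.40, 11.68 and 11.84 against 8.59, 9.01, 8.39, 8.47 and 8.79 and 10.18, 10.05, 10.19, 10.01 and 9.88 in cDC1s (-3.19 and -1.59, adjusted p = 6.13e-17 and 1.61e-13), and *Itgav* (-1.47) and *Tgfbi* (-1.43) were lower.

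Of 26 cell cycle genes tested, 15 were higher in cDC1s in both genotypes and none was lower, with a median of 1.41. *Tyms*, an enzyme of DNA precursor synthesis, was at 8.52, 8.90, 8.78, 8.92 and 8.54 against 5.31, 6.57 and 7.42 (2.21, SE 0.21, limma adjusted p = 4.47e-09), *Birc5*, survivin, at 8.53, 9.16, 8.97, 9.46 and 9.21 against 6.79, 6.98 and 7.47 (1.97, SE 0.14, adjusted p = 3.21e-11) and the mitotic kinase *Cdk1* at 8.41, 8.51, 8.20, 8.08 and 8.27 against 4.88, 6.20 and 7.29 (2.20, SE 0.18, adjusted p = 2.72e-10). No array overlapped for these 3, but *Cdk1* was not called in both genotypes under median scaling. *Mki67*, chosen after its values were seen, was at 0.14. The count of 15 was 5 under median scaling and 6 with no background correction, and 19 without arrays 23 and 28.

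Of 13 T cell markers 5 were higher in cDC1s in both genotypes and 1 was lower (median 1.06), against 4.10% and 7.10% of all genes. Among those that were higher were the CD3 chains *Cd3g*, at 10.16, 7.58, 8.25, 9.02 and 6.63 against 5.52, 5.75 and 6.61 (2.52, SE 0.34, limma adjusted p = 1.1e-06), *Cd3e*, at 9.15, 6.50, 7.81, 8.98 and 6.11 against 5.24, 5.61 and 6.30 (2.02, SE 0.36, adjusted p = 4.98e-05), and *Cd3d*, at 9.27, 7.60, 8.45, 9.56 and 6.49 against 5.71, 6.24 and 7.24 (1.97, SE 0.35, adjusted p = 5.96e-05). These chains were highest on array 23 in WT and on array 28 in Mbd2KO, and on array 30 they were inside the macrophage range (*Cd3d*, *Cd3e*) or just above it (*Cd3g*). *Cd8b1*, chosen after its values were seen, showed no such spread among cDC1s, at 10.37, 10.75, 10.80, 10.67 and 10.70 against 8.98, 9.47 and 9.79 (1.20, and 0.64 under median scaling). A dimmer probe of *Cd8b1* gave a larger difference of 3.51, with means of 9.24 in cDC1s and 5.64 in macrophages, and its dimmest tested probe gave 1.15. *Il7r* was lower (-1.69). Without arrays 23 and 28 the count was 2, the median was 0.29, and *Cd3g*, *Cd3e* and *Cd3d* stood at 1.63, 1.03 and 1.21. These arrays were left out because their sums of this same list were the highest of their genotypes. A fall of the list and of its CD3 members was thus built into the choice and is no separate result.

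Of 7 markers of NK and innate lymphoid cells, 4 were higher (median 1.65). With no background correction 2 were (median 0.66), and 2 at an offset of 50 (median 0.94). *Nkg7*, a granule protein of cytotoxic cells, was at 9.46, 7.53, 9.16, 10.24 and 7.39 against 5.26, 6.09 and 6.44 (2.73, SE 0.35, limma adjusted p = 4.9e-07). *Klrd1* (CD94) was at 10.07, 9.20, 8.73, 8.40 and 8.82 against 5.82, 7.14 and 7.82 (2.21, SE 0.21, adjusted p = 3.91e-09), *Klrk1* (NKG2D) at 8.41, 8.66, 7.48, 7.07 and 7.77 against 5.23, 6.03 and 6.77 (2.00, not called in both genotypes under median scaling) and *Tbx21* (T-bet) at 6.33, 5.94, 6.34, 6.71 and 6.47 against 4.25, 4.57 and 5.20 (1.65). All 4 were without overlap, and without arrays 23 and 28 their differences were 1.94, 2.07, 2.17 and 1.53. *Prf1* (0.29) and *Il2rb* (0.15) were not called.

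Markers of the remaining cell types were called higher, lower or not at all. The shares of all genes tested were 4.10% higher and 7.10% lower. Of 12 B and plasma cell markers, 5 were lower (1 with no background correction and 3 at an offset of 50, with medians of -0.41 and -0.59 against -1.02), led by *Cd79b* (-2.65), *Sdc1* (-1.91) and *Pou2af1* (-1.81), and *Fcrla* was higher, at 9.77, 9.53, 9.98, 9.43 and 9.13 against 6.52, 7.67 and 8.77 (1.92, SE 0.24, limma adjusted p = 3.12e-07). Of 6 neutrophil markers 3 were lower, *Csf3r* (-3.84), *Mmp9* (-3.31) and *Retnlg* (-2.12). The mast cell protease gene *Mcpt1* was higher in both genotypes, at 9.39, 5.30, 4.56, 9.32 and 6.70 against 4.25, 4.74 and 5.27 (2.34, SE 0.53, adjusted p = 0.000703), but only arrays 23 and 28 were far above the macrophages, and without them the difference was 0.72. *Vwf* was the single stromal or endothelial marker called (1.52, and 0.96 under median scaling), and of 15 epithelial markers none was called, with summed intensities of 6494 to 24440 on cDC1 arrays and 7623 to 26770 on macrophage arrays.

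The difference between the cell types was itself compared between genotypes. By limma, 1035 genes (8.13%) had an interaction of cell type and genotype at an adjusted p under 0.05, with no minimum size, and 100 of these were among the 1426 genes called in both genotypes. The count was unstable, since it was 77 without WT cDC1 array 23, 1589 without WT cDC1 array 26 and 21 with array weights. It was 32 when the 15 arrays were normalized and fitted alone, without the monocyte arrays. WT cDC1s had only 2 arrays, on sets of 6 neighbouring columns that held no macrophage array, so that the position of the column and the WT comparison cannot be told apart. Within the sets that held both cell types (7 Mbd2KO arrays), all 1426 genes kept their direction and 1341 were called. These 7 arrays had also served to call the 1426 genes, so this fit is no separate check. It holds no WT array and does not bear on the WT comparison.

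The smallest interaction p-values belonged to *Ets2*, a transcription factor of the Ets family, at 9.98, 10.31, 11.31, 11.19 and 11.36 against 12.64, 12.80 and 12.93, and *Kmt2c*, a histone methyltransferase, at 8.45, 8.73, 7.22, 6.89 and 6.91 against 7.88, 8.24 and 8.44. The cDC1 minus macrophage difference of *Ets2* was -2.65 in WT and -1.51 in Mbd2KO (difference of differences 1.14, limma adjusted p = 0.000274), and that of *Kmt2c* was 0.36 and -1.21 (-1.57, adjusted p = 0.000274). For *Ets2* the interaction was 0.69 under median scaling (adjusted p = 0.333). *1600029I14Rik* (1.72 and 3.50), *Morn1* (0.64 and 1.98), *Avil* (0.15 and 1.50) and the predicted locus *LOC382074* (0.29 and 1.53) were nearer to macrophages in WT than in Mbd2KO. Only 10 genes were called in opposite directions in the genotypes. Among them *Arl5a*, a small GTPase, went from 1.89 in WT to -1.82 in Mbd2KO, the antioxidant regulator *Nfe2l2* from 1.44 to -1.32, *Ptpre*, a phosphatase, from -1.62 to 1.34 and the cytochrome oxidase subunit *Cox6a2* from -1.46 to 1.06. These 4 were chosen after their values were seen, as the members of the 10 with a current gene name.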

How the data were processed

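RNA of sorted colon cells was hybridized to Illumina MouseWG-6 BeadChips, 1 array a sample. The authors deposited one table of mean bead intensities, with no background subtraction or normalization between arrays, and beside each a detection p-value against the negative controls of that array. Their processing notes name lumi and limma. 3 columns of single arrays that match no sample were not used. From the deposited intensities, background was corrected by normexp with 936 negative control probes and an offset of 16. The 25 colon arrays, 10 of them of monocytes, were quantile normalized. Their log2 values were fitted with limma 3.58.1 in R 4.3.3 over 6 groups (cDC1s, macrophages and monocytes, each in WT and in Mbd2KO). Probes were tested where the detection p-value was under 0.05 on at least 5 of the 15 cDC1 and macrophage arrays (18138 probes). A gene was read by its brightest probe (12729 genes). A gene was called at a log2 difference of 1 or more in size with an adjusted p (Benjamini-Hochberg) below 0.05. Genes were renamed through accessions where the RefSeq table held them (27655 of 36692 probes with an accession). A probe detected on no array of a cell type gave a bound, the bright mean against, per array, the higher of its own signal and the lowest detected signal.

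The text names the genes with the 12 largest differences each way among those called in both genotypes without overlap and detected on every array of the brighter cell type, the sort gate genes and defining markers, up to 4 members of each gene list called in both genotypes with the largest differences and those of opposite direction, and the 6 genes with the smallest interaction p-values, and says where others were chosen after their values were seen. The members and lists were chosen with earlier results of these data known. The fit was tested on simulated data. Alternatives were the background correction, offset, normalization, filter, thresholds, array weights, arrays fitted, column sets as a block, and leaving out each array. A few genes that these rules name are not reported here.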

Additional observations from a re-analysis of the deposited data

Results flagged for a closer look

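Of 264 sets of 5 macrophage arrays examined for single genes, 19 held 1 array far from the other 4, where chance gives about 1 in 20. The values are normalized log2 intensities. On WT macrophage array 11 this held for *Lipa* (9.78). On WT macrophage array 12 this held for *Csf3r* (8.25), *Ctsa* (12.65), *Fcgr4* (13.56), *Il1a* (8.15), *Lgmn* (12.40) and *Psme2* (4.72). On WT macrophage array 13 this held for *Nkg7* (5.26). On WT macrophage array 14 this held for *Mcpt1* (5.27) and *Mrc1* (11.93). On WT macrophage array 15 this held for *Itgam* (5.05). On Mbd2KO macrophage array 16 this held for *Il4i1* (9.23), *Mrc1* (11.82) and *Tnni2* (7.16). On Mbd2KO macrophage array 19 this held for *Ccrl2* (13.17), *Nr1h3* (10.87) and *Slc11a1* (13.70). On Mbd2KO macrophage array 20 this held for *Itgam* (7.48) and *Klrk1* (6.77).

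For 22 of the 132 named genes the cDC1 minus macrophage difference itself differed between genotypes in limma's interaction test (adjusted p under 0.05), given as Mbd2KO minus WT on the log2 scale. It was positive for *1600029I14Rik* (1.79), *Avil* (1.35), *C1qb* (0.90), *Cd79b* (1.31), *Clec4a1* (1.69), *Ctsa* (1.81), *Ets2* (1.14), *Fcgr4* (0.92), *LOC382074* (1.24), *Morn1* (1.34), *Pacsin1* (2.07), *Pf4* (0.90), *Sirpa* (0.96), *Tlr3* (0.76), *Tnni2* (1.04), *Trem2* (1.31) and *Zbtb46* (0.65). It was negative for *Cdk1* (-1.15), *Kmt2c* (-1.57), *Lgmn* (-0.92), *Spic* (-1.47) and *Top2a* (-1.56). Of the 22 genes, *Ets2*, *Kmt2c*, *1600029I14Rik*, *Morn1*, *Avil* and *LOC382074* were named because they had the smallest interaction p-values. Their passing this test was thus fixed by the choice. Over all 12729 genes tested, 1035 (8.13%) passed. Because of that choice, 22 of 132 cannot show whether named genes differed between genotypes more often than other genes. The number of genes passing over the whole array depended on single WT cDC1 arrays.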

How the results depend on the processing

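Against 886 genes higher and 1159 lower in cDC1s (522 and 904 in both genotypes, 1035 with an interaction), no background correction gave 427 and 663 (262 and 532). An offset of 50 gave 577 higher (343 in both genotypes). Median scaling gave 416 and 2017 (208 and 1394, interaction 583), and no minimum fold change gave 3318 and 3463 (1552 and 1939). The interaction count was 649 with cyclic loess, 32 with the 15 arrays alone, 597 with no filter, 95 at an adjusted p under 0.01, 21 with array weights, and 40 without both arrays 23 and 28, an alternative chosen after seeing the data. Leaving out 1 array at a time gave 854 to 927 higher and 1144 to 1224 lower, 459 to 561 and 855 to 946 in both genotypes, and an interaction count of 77 (without WT cDC1 array 23) to 1589 (without WT cDC1 array 26). It was 677 without Mbd2KO macrophage array 19, 463 without Mbd2KO cDC1 array 28 and 390 without Mbd2KO cDC1 array 30. The causes were not tested. With the genotypes averaged, 107 of 132 named genes kept their direction and side of the threshold in every setting run. This count does not follow the call in both genotypes, which some genes lost under median scaling as given above. The sign turned only for gate genes that were not called, *Ly6c1* (-0.17 under median scaling) and *Ptprc* (-0.35 to 0.22 over the arrays left out). No paired analysis was possible because no array number is shared between groups; the fits by column set are a block on array position, not a pairing of samples. Signal over background limits *Mbd2* and *Itgam*, and the top of the scale limits the classical MHC class II genes and *Il1b*.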
